A study of Mus musculus with 8 samples.

Results

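The heat shock protein genes described here are 10 members of the cytosolic and mitochondrial chaperone families, Hsph1, Hspa1a, Hspa1b, Hspa8, Hsp90aa1, Hsp90ab1, Dnajb1, Dnaja1, Hspb1 and Hspe1, out of 49671 gene IDs in a table of read counts from mouse liver. They were chosen by name, as the rows whose Ensembl ID has one of these symbols on GRCm38. All 10 were in the table, and 9 of them were among the 13117 genes that passed the filter on low counts (a CPM, which is the read count scaled to the library total, of 1 or more in 2 or more libraries). Hspa1a did not pass and is given by its counts. The study asked what loss of the N-terminal part of the lamin B receptor (Lbr), a protein of the inner nuclear membrane, does in mice of both sexes. Liver RNA came from mice labelled C57BL/6, and given as C57BL/6N in the study's methods, after weaning, with WT and NT-KO mice of each sex, which makes 4 groups of 2 libraries. NT-KO mice are homozygous for a deletion in every tissue that removes the first methionine of Lbr, and WT mice carry no such deletion.

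Heat shock proteins are chaperones that hold and refold unfolded proteins. HSP70 proteins (Hspa8, which is made in all cells, and the stress-inducible Hspa1a and Hspa1b) bind exposed hydrophobic stretches, HSP40 co-chaperones (Dnajb1, Dnaja1) deliver clients and drive the ATP cycle of HSP70, HSP110 (Hsph1) exchanges its nucleotide, and HSP90 (the inducible Hsp90aa1 and the constitutive Hsp90ab1) matures kinases and steroid receptors. Hspb1 is a small heat shock protein that holds unfolded proteins without ATP, and Hspe1 is the lid of the mitochondrial HSP60 chaperonin. Under heat or other proteotoxic stress the transcription factor HSF1 binds heat shock elements, repeats of the unit GAA in alternating orientation, and raises many of these genes together.

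In males, all 10 genes were lower in both NT-KO libraries than in both WT libraries, an order that 13.5% of all tested genes had. The fitted difference reached 5.58-fold for Hspa1b, 3.73-fold for Hsph1 and 3.44-fold for Hsp90aa1. In females the fitted log2 fold changes of the 9 genes tested lay between -0.29 for Hspa1b (-0.60 without female NT-KO replicate 2, -0.042 without replicate 1) and 0.15. Both male WT libraries also lay above both female WT libraries at 7 of the 9 genes tested (18.5% of all tested genes). On TMM-scaled CPM, in which library totals are corrected as in the fits, this held at 9 of the 9 (30.7% of all tested genes). None of the 9 genes passed the false discovery rate (FDR) of 0.05 in male NT-KO vs WT under the main test, and 3 of them passed as higher in male WT vs female WT, where 2.13% of all tested genes did.

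The labels were checked first. Lbr itself was counted at 7.40 and 6.15 CPM for male WT, 12.4 and 13.4 for male NT-KO, 7.81 and 7.36 for female WT and 13.7 and 14.4 for female NT-KO. All 4 NT-KO libraries were above all 4 WT libraries. The table counts reads over the whole gene, so this value does not show the deleted stretch. Xist, which marks the inactive X chromosome, had at least 50913 counts in each female library and at most 136 in each male library. Albumin (Alb), which defines hepatocytes, was at 48811 to 81532 CPM in all 8 libraries. Total counts per library lay between 45020377 and 64396291, so that 1 read was worth 0.0155 to 0.0222 CPM. The labels do not say whether the 2 libraries of a group came from separate animals, and the p-values measure only the spread between these libraries. In bulk liver, fewer cells of a type and less RNA per cell cannot be told apart.

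Promoter stretches with the letters of the heat shock element are shown for 6 of these genes, as a description of the sequence. Any link to how the genes varied together across libraries was not tested. RefSeq promoter windows on GRCm38.p6 (250 bases before the start to 50 after it) were matched for 7 of the 10 genes, in 11 windows, and windows of Hspa8, Hsp90aa1 and Hsp90ab1 were not used here. Pairs of units, searched on both strands as GAANNTTC and TTCNNGAA, which can overlap by sharing a unit, occurred before the start in 6 of these 7 genes. The exception was Dnajb1. By gene, the same letters occurred before the start in 14.5% of the 27025 genes with a window. By window, they occurred in 7 of the 11 and in 12.8% of all 32851. In the lines that follow, capitals mark the units and the 2 bases between them.
Hspe1, chr1:55088044-55088091, plus strand: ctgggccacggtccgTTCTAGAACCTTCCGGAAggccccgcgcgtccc
Hspb1, chr5:135887787-135887844, plus strand: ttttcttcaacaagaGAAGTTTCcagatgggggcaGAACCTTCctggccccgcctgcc
Hsph1, chr5:149636347-149636384, minus strand: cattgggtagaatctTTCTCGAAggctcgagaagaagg
Dnaja1, chr4:40722329-40722366, plus strand: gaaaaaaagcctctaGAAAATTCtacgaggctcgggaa
Hspa1a, chr17:34972238-34972275, minus strand: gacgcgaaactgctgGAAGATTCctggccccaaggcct
Hspa1b, chr17:34959320-34959357, minus strand: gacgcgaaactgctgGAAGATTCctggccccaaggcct

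Hspe1 was the one gene of the 7 with 3 or more units in a row before its start, each unit in the opposite orientation to the last and 2 bases from it, which 0.514% of all genes with a window had. Hsph1 also held 3 units in a row, but after its start. The window of Hspe1 was the only one used here whose bases after the start were not found in a transcript. The printed stretch is the same in Hspa1a and Hspa1b, and their windows were identical at 247 of 250 bases before the start (98.8%). A match of letters is a description of the sequence and was not tested as a binding site.

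Levels were compared between genes per length, as CPM per kb of merged exon. In male WT, Hspa8 had the highest level, at 402 ± 98.9 CPM per kb (SD, n = 2), followed by Hsp90ab1 at 227 ± 33.3, Hspe1 at 133 ± 25.2, Hsp90aa1 at 84.0 ± 35.3 and Dnaja1 at 41.6 ± 12.3 CPM per kb. Hsph1 at 20.5 ± 7.93, Hspb1 at 19.8 ± 9.06, Hspa1b at 16.9 ± 11.3 and Dnajb1 at 10.7 ± 3.61 CPM per kb had overlapping ranges of mean ± SD. Within each library, however, Hsph1, Hspb1 and Hspa1b were above Dnajb1. They lay at 8.92 to 14.9 against 8.20 CPM per kb in replicate 1, and at 24.9 to 26.2 against 13.3 in replicate 2. Hspa1a was last, at 0.563 ± 0.453 CPM per kb. The constitutive genes thus headed the order, and their values are set out against the inducible ones in the plot of level per length.

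In female WT the order began the same way, with Hspa8 at 250.4 ± 7.95, Hsp90ab1 at 157 ± 13.6 and Hspe1 at 127 ± 6.05 CPM per kb. Dnaja1 at 29.8 ± 1.503 and Hsp90aa1 at 27.0 ± 5.43 CPM per kb were next, with overlapping ranges of mean ± SD. The ranges also overlapped for Dnajb1 at 7.81 ± 0.541, Hspb1 at 7.80 ± 2.58 and Hsph1 at 7.38 ± 0.949 CPM per kb. Hspa1b was well below them at 2.49 ± 0.227 CPM per kb. In male WT it had stood beside Hsph1 and Hspb1.

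**Figure D1:**
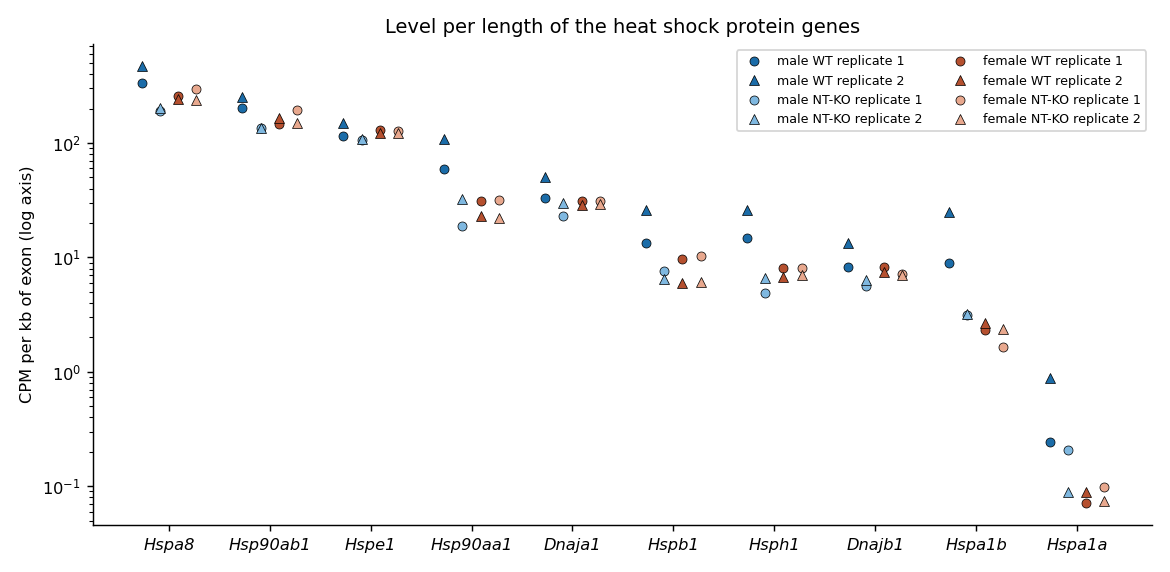
Level of the 10 heat shock protein genes in each of 8 liver libraries as CPM per kb of merged exon, on a log axis, with circles for replicate 1 and triangles for replicate 2 and colour for the group. Hspa8, Hsp90ab1 and Hspe1 are highest in every group, and the male WT symbols (dark blue) lie above the others most clearly for Hspa1b, Hsph1 and Hsp90aa1.

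Summed over the 10 genes, the chaperones took 2901 and 4200 CPM for male WT (rounded to whole CPM), 1731 and 1899 for male NT-KO, 2226 and 2159 for female WT and 2533 and 2088 for female NT-KO. As a share of all counts, the group means were 0.355% for male WT and 0.182% for male NT-KO, and for females 0.219% without and 0.231% with the deletion. Both male WT libraries were above the other 6, and male WT replicate 2 was above replicate 1 by more than any other pair of replicates differed. The genes varied together from library to library. Pearson's r of each gene's log2 CPM with the mean of the other genes was between 0.88 (Hspa1b) and 0.99 (Hsph1) over 8 libraries, as a description, since all the genes share the same libraries and their depth.

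HSP110 and the inducible HSP70 and HSP90 genes. Hsph1 (ENSMUSG00000029657, chromosome 5, 149614287 to 149636376, minus strand) was at 108 and 189 CPM for male WT, 35.6 and 47.8 for male NT-KO, 58.5 and 48.7 for female WT and 58.7 and 51.4 for female NT-KO. Both male WT libraries were above all others, and both male NT-KO libraries were below all others. On TMM-scaled CPM, however, male NT-KO replicate 2 (48.5) was above female WT replicate 2 (46.2). The log2 fold change in male NT-KO vs WT was -1.90 (SE 0.277, FDR 0.123 by the quasi-likelihood test of edgeR) and in females 0.06 (SE 0.268, FDR 1). No 50-base stretch of its transcripts occurs in another gene, so its counts do not depend on how reads shared between genes were treated.

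Hspa1b (ENSMUSG00000090877, chromosome 17, 34956436 to 34959238, minus strand) was at 24.999 and 69.7 CPM for male WT, 8.81 and 8.92 for male NT-KO, 6.52 and 7.42 for female WT and 4.58 and 6.60 for female NT-KO. Male WT was above all other libraries, and both male NT-KO libraries lay above all 4 female libraries. The log2 fold change was -2.48 in males (SE 0.427, FDR 0.160) and -0.29 in females (SE 0.415, FDR 1), by the quasi-likelihood test of edgeR. Leaving out female NT-KO replicate 2 gave -0.60 in females, and leaving out replicate 1 gave -0.042. Its neighbour Hspa1a (ENSMUSG00000091971, chromosome 17, 34969190 to 34972156, minus strand) had 44 and 118 counts for male WT, 31 and 14 for male NT-KO, 11 and 17 for female WT and 16 and 14 for female NT-KO. Male WT was again highest, although replicate 1 was close to male NT-KO replicate 1 (0.719 against 0.613 CPM).

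The pair Hspa1a and Hspa1b is the one for which counting matters most. Of the 50-base stretches of Hspa1a and Hspa1b, 66.3% and 62.3% occur in another gene, largely in each other, and how reads matching several genes were counted is not given in the sources used here. The low level of Hspa1a beside Hspa1b is therefore uncertain. With the counts of both genes summed before the fit, the male log2 fold change was -2.46 (FDR 0.160, edgeR's quasi-likelihood test), close to that of Hspa1b alone. Exons of Hspa1a also share 564 bases with Gm20481 on the other strand, and without a stated strand setting their reads cannot be told apart.

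Hsp90aa1 (ENSMUSG00000021270, chromosome 12, 110690605 to 110702728, minus strand) was at 232 and 428 CPM for male WT, 74.4 and 127 for male NT-KO, 121 and 91.1 for female WT and 126 and 87.3 for female NT-KO. The male WT libraries were above all others, and the other 3 groups overlapped. Its log2 fold change was -1.78 in males (SE 0.366, FDR 0.177) and 0.03 in females (SE 0.356, FDR 1), by the quasi-likelihood test of edgeR. Of its 50-base stretches 47.5% occur in other genes, mostly in the pseudogene Gm12346.

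The constitutive HSP70 and HSP90 genes. Hspa8 (ENSMUSG00000015656, chromosome 9, 40800984 to 40810087, plus strand) was at 1430.3 and 2032 CPM for male WT, 827 and 863 for male NT-KO, 1101 and 1053 for female WT and 1277 and 1031 for female NT-KO. Male WT was highest and male NT-KO lowest, with no overlap with the female libraries on either side. The log2 fold change was -1.10 in males (SE 0.222, FDR 0.167) and 0.12 in females (SE 0.219, FDR 1), by the quasi-likelihood test of edgeR. Its exons overlap snoRNA genes, and 39.4% of its 50-base stretches occur in other genes.

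Hsp90ab1 (ENSMUSG00000023944, chromosome 17, 45567775 to 45573271, minus strand) was at 611 and 752 CPM for male WT, 405 and 407 for male NT-KO, 442 and 499.6 for female WT and 579.9 and 448 for female NT-KO. The order was that of Hspa8, with a smaller gap. The log2 fold change was -0.82 in males (SE 0.202, FDR 0.229) and 0.15 in females (SE 0.201, FDR 1), by the quasi-likelihood test of edgeR. Its male difference was 1.76-fold, against 3.44-fold for the inducible Hsp90aa1, although the difference between these genes was not tested.

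HSP40 co-chaperones. Dnajb1 (ENSMUSG00000005483, chromosome 8, 83608193 to 83612653, plus strand) was at 26.3 and 42.6 CPM for male WT, 17.9 and 20.4 for male NT-KO, 26.3 and 23.8 for female WT and 22.8 and 22.7 for female NT-KO. Male WT replicate 1 lay at the level of female WT replicate 1 on this scale, whereas on TMM-scaled CPM it was at 28.5 against 24.9 and both male WT libraries were above all others. Its log2 fold change was -0.91 in males (SE 0.222, FDR 0.228) and -0.11 in females (SE 0.220, FDR 1), by the quasi-likelihood test of edgeR.

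Dnaja1 (ENSMUSG00000028410, chromosome 4, 40722150 to 40737149, plus strand) was at 285 and 434 CPM for male WT, 197 and 260.5 for male NT-KO, 267 and 248 for female WT and 267 and 254 for female NT-KO. The 2 male WT libraries were above the rest, and male NT-KO replicate 2 lay among the female libraries, but above them on TMM-scaled CPM (264 against at most 253.6). The log2 fold change was -0.72 in males (SE 0.235, FDR 0.320) and 0.04 in females (SE 0.234, FDR 1), by the quasi-likelihood test of edgeR. Its exons share 608 bases with Smu1 on the other strand.

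The small and the mitochondrial chaperone. Hspb1 (ENSMUSG00000004951, chromosome 5, 135887919 to 135889563, plus strand) was at 13.8 and 27.0 CPM for male WT, 7.82 and 6.66 for male NT-KO, 9.93 and 6.16 for female WT and 10.6 and 6.23 for female NT-KO. Male WT was above all others, and the other 3 groups overlapped. Its log2 fold change was -1.56 in males (SE 0.383, FDR 0.229) and 0.09 in females (SE 0.377, FDR 1), by the quasi-likelihood test of edgeR. The pseudogene Hsp25-ps1 holds most of the 50.1% of its 50-base stretches that occur elsewhere.

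Hspe1 (ENSMUSG00000073676, chromosome 1, 55088132 to 55091307, plus strand) was at 169.7 and 222 CPM for male WT, 157 and 159 for male NT-KO, 193 and 181 for female WT and 187 and 181 for female NT-KO. Male WT replicate 1 was below all female libraries, but on TMM-scaled CPM it was at 184.3 and above all of them, the highest of which was at 183.3. Its log2 fold change of -0.38 in males was the smallest of the 9 (SE 0.177, FDR 0.463 by the quasi-likelihood test of edgeR), and in females it was -0.0005 (SE 0.177, FDR 1). Hspd1, its HSP60 partner, starts on the other strand beside it and shares 112 exon bases with it.

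**Figure D2:**
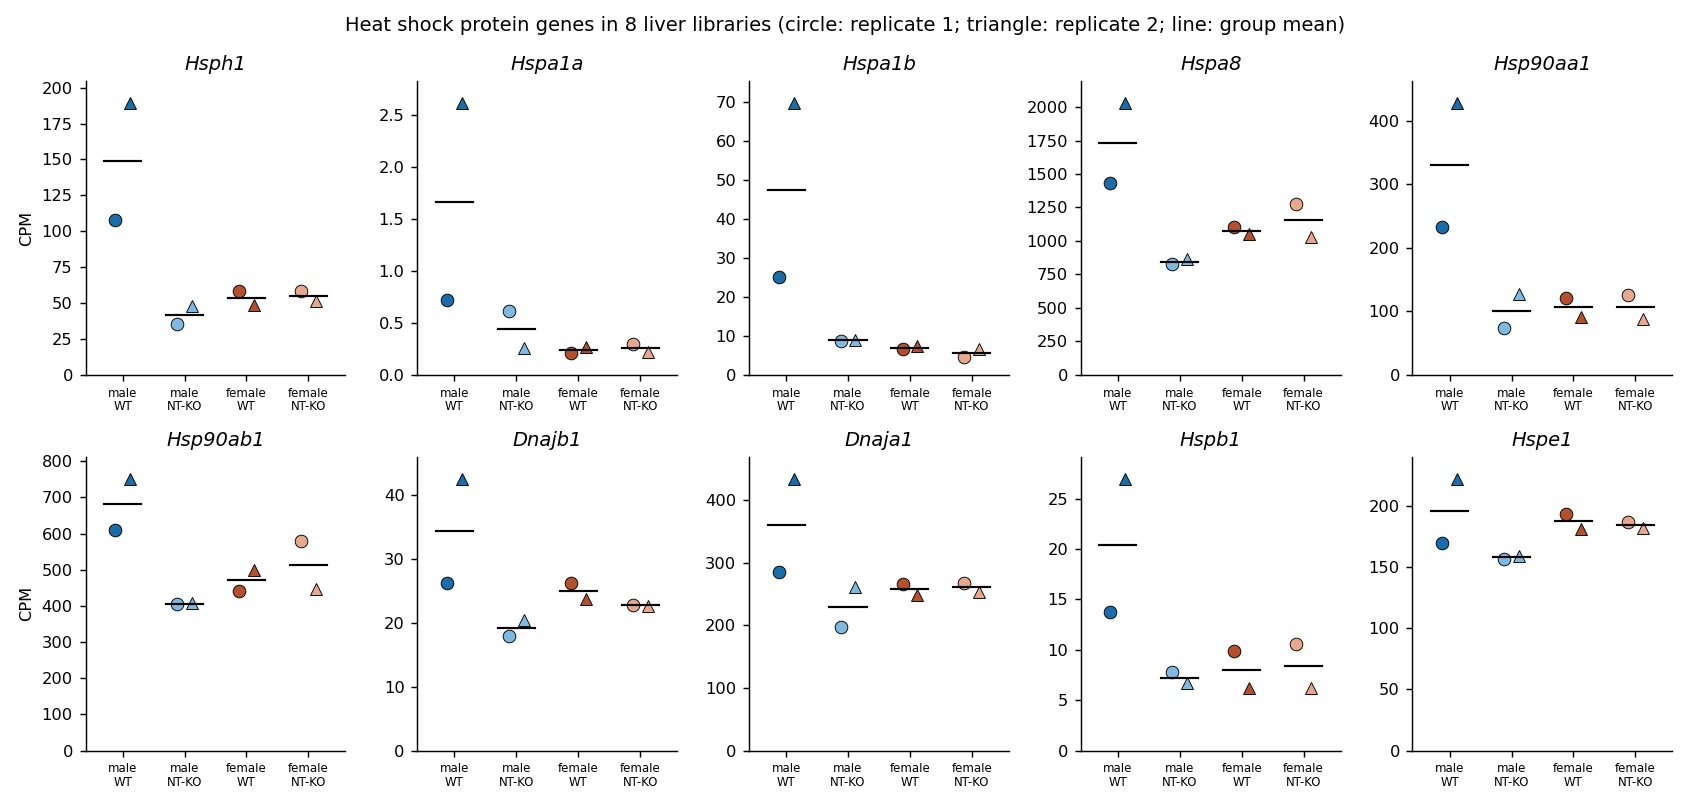
CPM of each of the 10 heat shock protein genes in the 8 liver libraries, with circles for replicate 1, triangles for replicate 2 and a line at the group mean, on axes from 0. Male WT replicate 2 is the highest library in all 10 panels, and both male NT-KO libraries lie below both male WT libraries.

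For NT-KO vs WT in males, none of the 9 genes passed edgeR's quasi-likelihood test, for which a call needed an FDR up to 0.05 and a log2 fold change beyond 1 in either direction, and 0.0152% of all tested genes did. With an unadjusted p under 0.05, 8 of the 9 were lower, against 5.5% of all tested genes, and the ninth was Hspe1. None was higher, against 6.03% of all tested genes. Groups did not overlap, with NT-KO lower, at 9 of the 9, against 13.5% of all tested genes. The median log2 fold change of the 9 genes was -1.10, beside 0.01 over all tested genes, and 5 of the 9 were below -1, against 2.07% of all tested genes. The other tests run on the same counts made more calls. Among them, the likelihood ratio test of edgeR uses glmFit, the fit that the study's methods name. The likelihood ratio test of edgeR called 5 of the 9 lower (0.739% of all tested genes), which were Hsph1, Hspa1b, Hspa8, Hsp90aa1 and Hspb1, and DESeq2 called 5 lower (0.808% of all tested genes). All 9 were below 0 with TMM factors, with RLE factors and with library size alone, and with TMM factors 48.3% of all tested genes were.

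The male difference depended on male WT replicate 2 for its size but not for its direction. Without that library the log2 fold change was -1.45 for Hsph1, -1.58 for Hspa1b, -1.29 for Hsp90aa1, -0.84 for Hspa8 and -1.01 for Hspb1. It was -0.67 for Hsp90ab1, -0.54 for Dnajb1, -0.40 for Dnaja1 and -0.19 for Hspe1, with a median of -0.84. Without male WT replicate 1 the median was -1.32, with -2.24 for Hsph1 and -3.03 for Hspa1b. More genes were called in males without that library, both among the heat shock protein genes and over all tested genes.

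In females, edgeR's quasi-likelihood test called 0 of the 9 genes, as did its likelihood ratio test and DESeq2, where these called 0.00762%, 0.0839% and 0.0381% of all tested genes in either direction. None of the 9 had an unadjusted p under 0.05, as 0.679% of all tested genes did on the lower side and 0.869% on the higher side. The median log2 fold change was 0.04, and 3 of the 9 genes were below 0, as were 49.7% of all tested genes, although Hspe1 at -0.0005 turned positive with RLE factors. Dnajb1 was the one gene whose groups did not overlap, with NT-KO lower, in a comparison where this held for 16.9% of all tested genes. Over both sexes together, edgeR's quasi-likelihood test called 0 of the 9 genes (0.0152% of all tested genes), and 7 had an unadjusted p under 0.05, all lower (2.42% of all tested genes). The likelihood ratio test and DESeq2 each called 1 of the 9 lower there, and each called 0.145% of all tested genes lower.

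The difference between the male and the female effect was tested in the same model. Its log2 value was -1.96 for Hsph1 (SE 0.382, FDR 0.573), -2.19 for Hspa1b (SE 0.586, FDR 0.573), -1.81 for Hsp90aa1 (SE 0.507, FDR 0.573) and -1.22 for Hspa8 (SE 0.311, FDR 0.573), by the quasi-likelihood test of edgeR. The remaining 5 genes lay between -1.64 for Hspb1 and -0.38 for Hspe1. Without male WT replicate 2 the value was -1.51 for Hsph1, -1.28 for Hspa1b, -1.32 for Hsp90aa1 and -0.96 for Hspa8. It was -1.10 for Hspb1, -0.44 for Dnaja1, -0.42 for Dnajb1 and -0.19 for Hspe1. For Hsp90ab1 it lay between -1.13 and -0.78 with any 1 library left out. None of the 9 passed the FDR, which 0.0152% of all tested genes did, and 7 had an unadjusted p under 0.05 with the male effect lower (3.53% of all tested genes). The likelihood ratio test called 1 of the 9, Hsph1, on the lower side (0.168% of all tested genes), and DESeq2 called 4, Hsph1, Hspa1b, Hspa8 and Hsp90aa1 (0.259%).

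**Figure D3:**
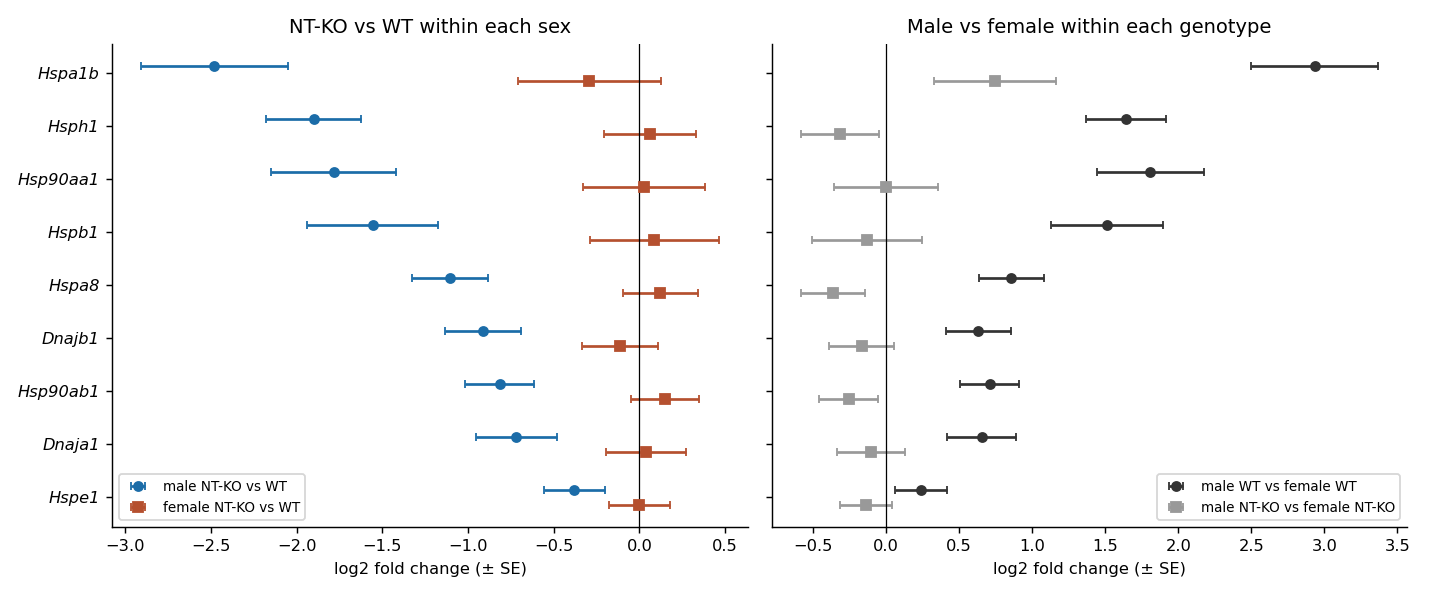
Fitted log2 fold changes with standard errors for the 9 heat shock protein genes tested, NT-KO vs WT within each sex (left) and male vs female within each genotype (right). The male NT-KO vs WT values lie between -2.48 and -0.38 and the female ones between -0.29 and 0.15, and the male WT vs female WT values lie between 0.24 and 2.93.

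Male WT also differed from female WT. Of the 9 genes, edgeR's quasi-likelihood test called 3 higher in male WT, where 2.13% of all tested genes were called higher and 4.68% in either direction. These were Hspa1b, 7.63-fold higher (log2 2.93, SE 0.435, FDR 0.0103), Hsp90aa1, 3.501-fold higher (log2 1.81, SE 0.366, FDR 0.0314), and Hsph1, 3.12-fold higher (log2 1.64, SE 0.274, FDR 0.0173). Hspb1 (log2 1.51, FDR 0.0560) and Hspa8 (log2 0.86, FDR 0.0587) did not pass by the quasi-likelihood test of edgeR, and Hspe1 was closest between the groups (log2 0.24, FDR 0.415). The 3 called genes are an inducible HSP70 gene, the inducible HSP90 gene and HSP110. The likelihood ratio test and DESeq2 each called 4 of the 9 higher, with Hspb1 as the addition, where they called 3.29% and 3.3% of all tested genes higher. Both male WT libraries were above all 6 other libraries at 7 of the 9 genes, which held for 6.21% of all tested genes, and on TMM-scaled CPM at 9 of the 9, which held for 12.3%. This comparison shares the male WT libraries with the male NT-KO comparison, so the values of one are not independent of those of the other.

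These calls were sensitive to single libraries. Without male WT replicate 2, 1 gene was called, Hspa1b (log2 2.03, FDR 0.00926, edgeR's quasi-likelihood test). More of the 9 were called without male WT replicate 1, and fewer without any 1 of the female libraries. The number called over all tested genes moved as well, and was lowest without female WT replicate 2. Whether the 9 lost calls more readily than other genes was not tested. Without male WT replicate 2, the log2 value was 0.97 for Hspb1, 0.33 for Dnaja1, 0.26 for Dnajb1 and 0.047 for Hspe1, and without replicate 1 it was 0.41 for Hspe1. Nevertheless all 9 genes kept a value above 0 without either male WT library.

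For male NT-KO vs female NT-KO no gene was called. The quasi-likelihood test, the likelihood ratio test and DESeq2 called 0 of the 9, against 1.78%, 3.13% and 3.06% of all tested genes. None of the 9 had an unadjusted p under 0.05, while 4.96% of all tested genes were lower and 4.86% higher by that measure. The log2 values lay between -0.37 for Hspa8 and 0.74 for Hspa1b, and 8 of the 9 were below 0, as were 48% of all tested genes.

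Male WT replicate 2 was the highest of the 8 libraries at 10 of the 10 genes, a place it held at 13.3% of all tested genes, and its log2 CPM exceeded that of replicate 1 by a median of 0.67 over the 9 genes. The same median between replicates was 0.04 for male NT-KO, -0.11 for female WT and -0.17 for female NT-KO. At the other end, male NT-KO replicate 1 was the lowest library at 7 of the 9 genes, a place it held at 15.2% of all tested genes, and on TMM-scaled CPM at 5 of the 9 (11.8% of all tested genes).

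No tested regulator of the response passed the test. Hsf1, the main heat shock factor, was at 13.9 and 14.6 CPM for male WT, 15.04 and 11.2 for male NT-KO, 17.1 and 17.4 for female WT and 17.3 and 13.005 for female NT-KO, and its groups overlapped in males. Its log2 fold change in males was -0.19 (FDR 0.773), that of Hsf2 0.10 (FDR 0.922) and that of Hsbp1, an inhibitor that binds HSF1, 0.03 (FDR 0.959), by the quasi-likelihood test of edgeR. None of the 5 regulators tested, of 6 listed, had an unadjusted p under 0.05 in either sex. These are transcript levels and do not measure the activity of HSF1.

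Among 34 cytosolic co-chaperones and partners of HSP70 and HSP90, 27 had a fitted value below 0 in males, as did 48.3% of all tested genes, with a median of -0.25. Of them 11 were lower and 1 was higher at an unadjusted p under 0.05 (5.5% and 6.03% of all tested genes), and none passed the FDR under the quasi-likelihood model. The likelihood ratio test called 2 of them lower (0.739% of all tested genes). Stip1, which links HSP70 to HSP90, was at 72.2 and 84.9 CPM in male WT and 36.1 and 51.8 CPM in male NT-KO (log2 -0.91, SE 0.226). Ahsa1 and Ahsa2, activators of the HSP90 ATPase, differed by -0.64 (SE 0.167) and -0.75 (SE 0.168), Hspa4l, a relative of HSP110, by -1.17 (SE 0.302), and Fkbp4, an HSP90 partner of steroid receptors, by -0.65 (SE 0.202), all on the log2 scale. In females their values lay between 0.07 and 0.33. Without male NT-KO replicate 1 the male value of Hspa4l was -0.77. None of these 5 passed in the main fit, with an FDR of at least 0.205 by the quasi-likelihood test of edgeR. Hspa4l passed by the likelihood ratio test of edgeR (FDR 0.0284) and by DESeq2 (FDR 0.0109). With no filter beyond 1 count it also passed the quasi-likelihood test (FDR 2.22e-05).

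The cytosolic chaperonin TRiC, a ring that folds actin and tubulin, had a fitted value below 0 at 8 of 8 subunits in males (48.3% of all tested genes) with a median of -0.28, and 2 were lower at an unadjusted p under 0.05 (5.5% of all tested genes). Without male NT-KO replicate 1 this median was -0.17. Cct3 had the lowest value, -0.62 (SE 0.183), and Cct2 followed at -0.36 (SE 0.141). The 14 mitochondrial chaperones and proteases had a median of -0.08 in males (0.030 without male NT-KO replicate 1). Of them 9 were below 0, as were 48.3% of all tested genes. Hspd1, the HSP60 that Hspe1 caps, was at 412 and 429 CPM in male WT and 321 and 399 CPM in male NT-KO (log2 -0.30, SE 0.184, FDR 0.581 by the quasi-likelihood test of edgeR). Without male NT-KO replicate 1 its value was -0.16, and without replicate 2 it was -0.45. Grpel2, a mitochondrial nucleotide exchange factor, had the opposite sign at 0.67 (SE 0.201), while Clpx, part of a mitochondrial protease, was at -0.54 (SE 0.142) and Dnaja3, a mitochondrial HSP40, at -0.39 (SE 0.138).

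Of 9 further small heat shock proteins 4 passed the filter, 2 below and 2 above 0 in males. Hspb8 was at 159 and 276 CPM in male WT and 133 and 151 CPM in male NT-KO (log2 -0.68, SE 0.287), and Hspb6 was at 0.66 (SE 0.269), Cryab at -0.36 and Hspb11 at 0.12. Without male WT replicate 2 the value of Hspb8 was -0.25, and without male NT-KO replicate 1 that of Hspb6 was 0.28. Hspb1 was thus the one small heat shock protein of these with a male log2 fold change under -1.

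ER chaperones, which fold secreted proteins and are known to respond to a different stress pathway, lay below 0 at 20 of 20 genes in males (48.3% of all tested genes) with a median of -1.06, and at 18 of 20 in females (49.7%) with a median of -0.11. Among them, Hyou1, the HSP110 of the ER, was at 196 and 442 CPM for male WT, 59.7 and 89.0 for male NT-KO, 109.7 and 87.5 for female WT and 98.5 and 86.6 for female NT-KO. The 2 male WT libraries were above the other 6, as at its cytosolic relative Hsph1. Hspa5, the HSP70 of the ER, differed by -2.02 (SE 0.465) in males, Creld2 by -3.76 (SE 0.758), Manf by -2.24 (SE 0.462) and the abundant P4hb by -0.37 (SE 0.213). These sizes rested in part on male WT replicate 2, without which Hspa5 was at -1.07, Creld2 at -2.04, Manf at -1.39 and P4hb at -0.14, and the median of the 20 genes was -0.56. None of the 20 passed the FDR of edgeR's quasi-likelihood test in males, where 14 had an unadjusted p under 0.05, all lower (5.5% of all tested genes), and the likelihood ratio test called 7 lower (0.739%).

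**Figure D4:**
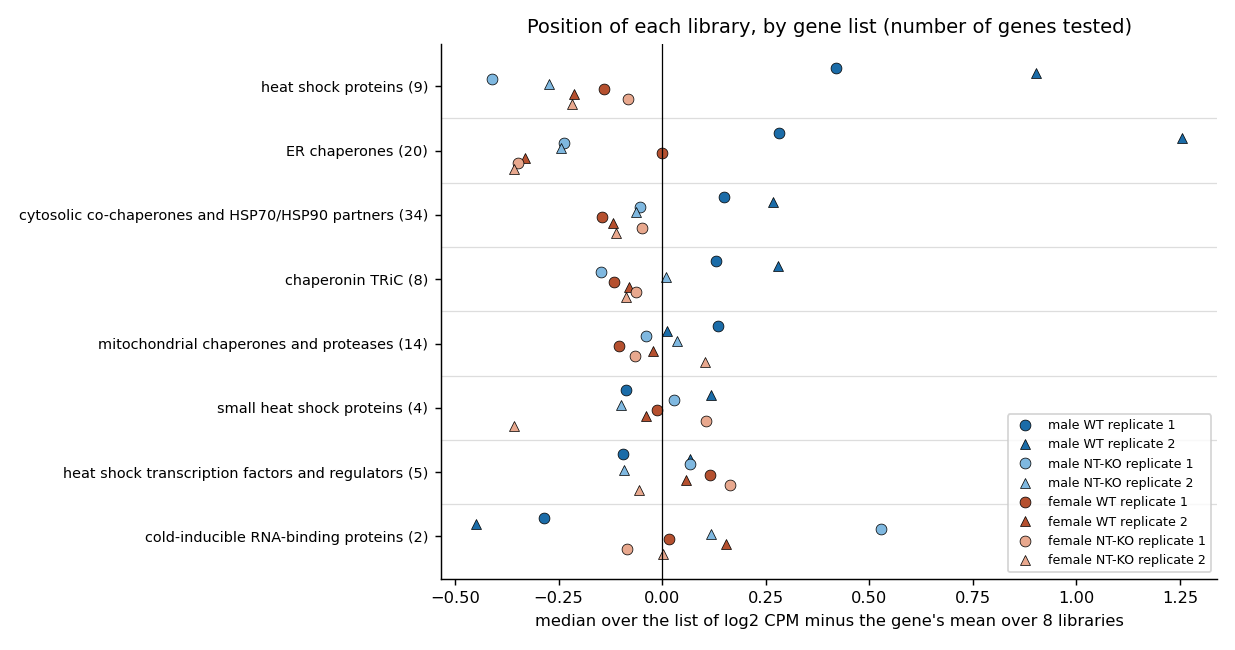
Median over each gene list of log2 CPM minus the gene's mean over the 8 libraries, with 1 symbol for each library and the number of genes tested in brackets. For the heat shock proteins the male WT libraries stand at 0.42 and 0.90 and the other 6 between -0.41 and -0.08, and for the ER chaperones male WT replicate 2 stands at 1.26.

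The cold-inducible RNA-binding proteins Cirbp and Rbm3, which are known to rise when cells are cooled, had the opposite sign in males. Cirbp was at 10.98 and 8.62 CPM for male WT, 29.4 and 16.8 for male NT-KO, 21.2 and 23.5 for female WT and 19.4 and 20.5 for female NT-KO. Both male WT libraries were the lowest of the 8 for Cirbp. Rbm3 was at 32.4 and 34.0 CPM for male WT and 41.2 and 42.3 for male NT-KO, and its female libraries lay between 31.1 and 36.4 CPM, so that male NT-KO stood above the rest there. The log2 fold change of Cirbp in males was 1.17 (SE 0.270, FDR 0.210) and that of Rbm3 was 0.26 (SE 0.134, FDR 0.491), by the quasi-likelihood test of edgeR. Cirbp passed by the likelihood ratio test, by DESeq2 and with no filter beyond 1 count (lowest FDR 3.73e-05), and its value was 0.69 without male NT-KO replicate 1. By the quasi-likelihood test neither passed in females or in the difference between the sexes, where Cirbp had a log2 value of 1.31 (FDR 0.573).

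**Figure D5:**
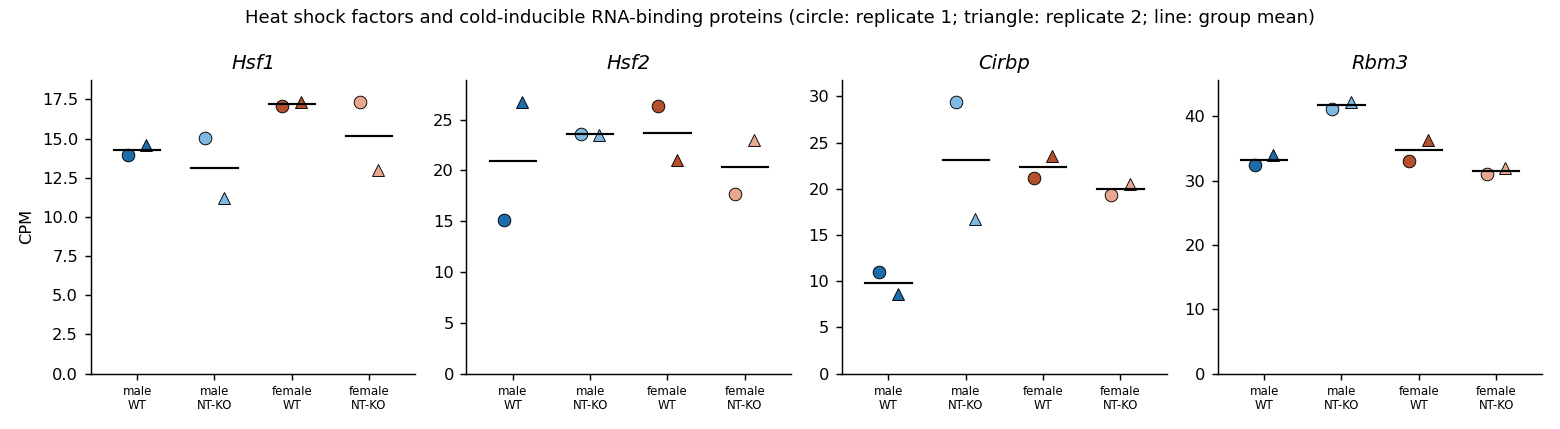
CPM of the heat shock factors Hsf1 and Hsf2 and of the cold-inducible Cirbp and Rbm3 in the 8 liver libraries, with circles for replicate 1, triangles for replicate 2 and a line at the group mean, on axes from 0. Cirbp is lowest in both male WT libraries, at 10.98 and 8.62 CPM, while the male WT and NT-KO libraries overlap for Hsf1 and Hsf2.

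The 10 tested genes outside the heat shock proteins whose log2 CPM over the 8 libraries was most like the mean of these genes had Pearson's r from 0.98 to 1.00 when rounded to 2 decimals. They were Srprb (r = 0.995), Hyou1 (r = 0.994), Tmem214, Tmed9, Nans, Ahsa1, Srm, Arf4, Wars and Gm5844. Srprb, a subunit of the receptor that docks ribosomes to the ER, was at 20.2 and 35.2 CPM for male WT, 11.99 and 12.6 for male NT-KO, 15.7 and 12.998 for female WT and 15.1 and 13.6 for female NT-KO. It too was highest in male WT replicate 2. Gm5844 is a processed pseudogene that holds 29.9% of the 50-base stretches of Hsp90aa1, and their reads cannot be told apart where they match both.

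Signals of other liver cells differed between the same libraries. The 6 Kupffer cell markers summed to 115 and 187 CPM for male WT, 216 and 163 for male NT-KO and at least 246 CPM in the female libraries, led by Clec4f. The 6 markers of sinusoidal endothelium summed to 143 and 99.4 CPM for male WT, 156 and 146 for male NT-KO and at least 175 CPM in the female libraries, led by Clec4g. The Kupffer cell sum was lowest in male WT replicate 1 and the endothelial sum in male WT replicate 2, and the heat shock protein genes were highest in replicate 2. The 5 B cell markers summed to 1.76 and 1.40 CPM for male WT, 2.35 and 3.48 for male NT-KO, 9.70 and 9.64 for female WT and 4.23 and 6.56 for female NT-KO. The 5 T cell markers summed to 0.882 and 1.13 CPM for male WT, 1.54 and 1.62 for male NT-KO, 5.02 and 3.77 for female WT and 2.88 and 2.88 for female NT-KO. Both sums were lowest in male WT and highest in female WT. The 5 erythroid markers, led by Hbb-bs, summed to 877 and 419 CPM for male WT and 362 and 366 for male NT-KO. In females these sums were 195 and 191 CPM for WT and 335 and 175 for NT-KO. Both male WT sums were above those of all other libraries, as were the summed chaperones. The erythroid sum was highest in male WT replicate 1, whereas the chaperones were highest in replicate 2. The median log2 fold change of the erythroid markers was -1.07 in male NT-KO vs WT and 1.98 in male WT vs female WT. The part of these cells in the result was not tested.

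The 6 hepatocyte markers summed to 96714 and 65111 CPM in male WT and 76349 and 92534 CPM in male NT-KO, with male WT replicate 2 the lowest of the 8. The 6 stellate cell markers, led by Dcn, summed to 187 CPM in male WT replicate 2, again the lowest, and to between 225 and 290.1 CPM in the other 7, and the 6 cholangiocyte markers, led by Spp1, to between 26.3 and 63.5 CPM. The 5 neutrophil markers, led by S100a9, summed to 6.60 CPM in male WT replicate 2, the highest of the 8 and the library in which the heat shock protein genes were highest, and to 1.55 CPM in male WT replicate 1 and at most 4.91 CPM in the other libraries. Their part in the result was not tested. The 6 muscle markers summed to at most 4.97 CPM and the 5 adipocyte markers to at most 16.4 CPM. Of the 6 pancreas markers Prss2 and Pnlip were at 0 in all libraries, and Cela1 made up nearly all of the sum of 14.8 to 37.3 CPM.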

How the data were processed

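The deposited file holds the number of reads per gene in 8 liver libraries, made from total RNA (Trizol, Illumina TruSeq). Per the labels and the study's methods, the authors checked reads with FastQC, trimmed adapters with cutadapt, mapped to GRCm38 with STAR 2.6.1a and obtained the deposited counts from featureCounts and Ensembl gene models. The counts carry no normalization. The strand setting and what was done with reads mapping to more than 1 gene are not given in the sources used here, and either can move reads between overlapping or near-identical genes. Gene names, positions and exon lengths came from GENCODE M21 on GRCm38, which did not match 259 of the 49671 IDs, and 19172 IDs had no count.

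CPM on column totals is printed for levels. Fold changes and tests come from edgeR 4.0.16 in R 4.3.3 (limma 3.58.1, DESeq2 1.42.0). Tests covered the 13117 genes that reached 1 CPM in 2 or more libraries and are not rRNA, miRNA or mitochondrially encoded, holding 91.8 to 92.9% of each library's counts. A quasi-likelihood model with 4 group means was fitted to all 8 libraries with TMM factors (0.921 to 1.05), which left 4 residual degrees of freedom. P-values are two-sided and Benjamini-Hochberg adjusted over all tested genes. Differentially expressed genes (DEGs) passed an FDR of 0.05 and a log2 fold change of 1 in size, or for the difference between the sexes the FDR alone. The SE is the absolute log2 fold change divided by the square root of F. With 2 libraries against 2 an exact permutation test cannot give a p below 0.333 and was not used. The scripts were tested on simulated data.

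The genes named are the 10 heat shock protein genes, Lbr, Hsf1, Hsf2, Hsbp1, at most 4 genes with the smallest p in male NT-KO vs WT and the gene of highest level per length in each other list, and the 10 most alike genes, and 1 gene that this rule picks is not reported here. Hsf2bp is named in addition, as the listed regulator that did not pass the filter. The members and lists were chosen with earlier results of these data known. As alternatives, the likelihood ratio test of edgeR, DESeq2, RLE factors or none (library size only), filters set to 1 count or by filterByExpr, a replicate block, no fold threshold, fits of each sex alone, Hspa1a and Hspa1b summed, other summaries of the median, TMM-scaled sums and leaving out each library in turn were run, and the overlap counts on TMM-scaled CPM were added after seeing the data.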

Additional observations from a re-analysis of the deposited data

How the results depend on the processing

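All 9 tested heat shock protein genes stayed below 0 in male NT-KO vs WT under every alternative. How many were called depended on the test and the filter: 0 by the quasi-likelihood test, 5 by the likelihood ratio test and DESeq2, and by the quasi-likelihood test with no filter beyond 1 count 6, of which 1 was Hspa1a, outside the 9. Over both sexes 1 was called by each of these 3, for the difference between the sexes 1, 4 and 5, and in male WT vs female WT 5 with no filter and 4 with filterByExpr, Hspa1a again among both. DEGs numbered 205 in males, 38 over both sexes, 46 for the difference, 1039 in male WT vs female WT and 410 in male NT-KO vs female NT-KO by the likelihood ratio test (main 2, 2, 2, 614 and 234), 218, 39, 62, 987 and 401 by DESeq2, 667, 205, 552, 1736 and 825 with no filter, and in males 4 with library size only and 6 with filterByExpr. In females DEGs numbered 11, 5 and 172 (main 1) and 0 with the female libraries alone. The cause was not tested. Leaving out 1 library gave 2 to 27 DEGs in males, 0 in females, 0 to 9 over both sexes, 1 to 7 for the difference, 180 to 728 in male WT vs female WT and 112 to 231 in male NT-KO vs female NT-KO, and 0 to 2, 0 to 1 and 0 to 4 called heat shock protein genes in males, over both sexes and in male WT vs female WT. The median of these genes ranged from -1.32 to -0.84 in males and from -0.069 to 0.14 in females. Single genes near 0 crossed it with a library left out. Ranges in females were -0.069 to 0.20 for Hsph1, -0.027 to 0.26 for Hspa8, -0.25 to 0.25 for Hsp90aa1, -0.035 to 0.31 for Hsp90ab1, -0.014 to 0.096 for Dnaja1, -0.33 to 0.47 for Hspb1 and -0.052 to 0.053 for Hspe1, and below 0 throughout for Hspa1b (-0.60 to -0.042) and Dnajb1 (-0.19 to -0.037). Ranges in males were -0.43 to 0.017 for Hsf1, -0.24 to 0.56 for Hsf2, -0.015 to 0.076 for Hsbp1, -0.10 to 0.38 for Hspb11 and -3.86 to 0.12 for Myc, and for the medians -0.11 to 0.030 over mitochondrial chaperones, -0.23 to 0.064 over small heat shock proteins and -0.37 to 0.47 over immediate early genes. The summed CPM of female WT was 2079 on TMM-scaled library sizes. With library size only, all tested genes shifted by a median of -0.18 in male WT vs female WT. Signs near 0 reversed for Hspe1 in females (0.0017 with DESeq2 and RLE, 0.0022 with no filter, 0.0047 with filterByExpr) and for the median of small heat shock proteins (0.37 with no filter, 0.23 with filterByExpr). The replicate numbers were not taken to pair the libraries. Deviations of same-numbered libraries correlated between -0.18 and 0.21, with signs both ways. The minimum set for pairing was r = 0.1. Male NT-KO passed it with female WT (0.21) and with female NT-KO (0.11), and the remaining pairs of groups did not. The replicate block left the heat shock protein calls at 0 in NT-KO vs WT and 3 in male WT vs female WT. With 2 libraries a group, a log2 fold change of -2.48 (Hspa1b in males) did not pass the quasi-likelihood test.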

Other observations

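Genes of the circadian clock, which the liver runs with the time of day and of feeding, were looked at in the same libraries. Of 18 listed, 17 were tested, with a median log2 fold change of 0.04 in male NT-KO vs WT (0.33 without male WT replicate 2), 3 lower and 4 higher at an unadjusted p under 0.05 (5.5% and 6.03% of all tested genes), and none past the FDR of edgeR's quasi-likelihood test. Dbp, a clock output gene, was at 26.3 and 29.0 CPM for male WT, 62.9 and 49.7 for male NT-KO, 67.8 and 73.8 for female WT and 45.6 and 71.6 for female NT-KO. Per3 was at 41.6 and 42.1 CPM in male WT and 66.6 and 67.4 CPM in male NT-KO, while Cry1 (16.0 and 16.9 against 9.09 and 9.71 CPM) and Clock (30.6 and 32.9 against 16.2 and 24.6 CPM) were higher in male WT. Clock had a log2 fold change of -0.71, and of -0.45 without male NT-KO replicate 1. In male WT vs female WT 5 of the 17 passed as DEGs (4.68% of all tested genes). The time of collection is not in the sources used here, and its part in the result was not tested.

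Of 19 immediate early genes 17 were tested, with a median of 0.26 in males (-0.37 without male NT-KO replicate 1). At an unadjusted p under 0.05, 2 were lower and 2 higher (5.5% and 6.03% of all tested genes), and none passed the FDR of edgeR's quasi-likelihood test. Klf4 (log2 0.90), Ier3 (0.95) and Zfp36 (0.62, and 0.36 without male NT-KO replicate 1) were on one side and Btg2 (-0.73) on the other. Myc was at 35.9 CPM in male WT replicate 1 and between 1.90 and 7.10 CPM in the other 7 libraries, so its male log2 fold change of -2.95 became 0.12 without that library.

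Further single-library values, named after their values were seen, were Egr1 at 0.800 CPM in male WT replicate 2 against 10.02 to 24.2 CPM in the other 7, and Fkbp5, an HSP90 partner induced by glucocorticoids, at 175 CPM in female WT replicate 1 against 38.3 to 65.1 CPM in the other 7. Hspa1a, left out by the filter, had a male log2 fold change of -1.97 (FDR 0.000656 by the quasi-likelihood test of edgeR) with no filter beyond 1 count, and of -1.99 (FDR 0.319, same test) with filterByExpr, under which it did not pass.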
